A study of Mus musculus with 4 samples.

Results

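A small population of lymph-node fibroblasts that carried Mgp, Fbln1, Fmo2 and related matrix genes was examined in single-cell RNA-seq data from mice that lacked Notch2 in lymph-node stroma and from control mice. The cells were chosen by their own UMIs (unique molecular identifiers, which count RNA molecules). A member held at least 2 Mgp UMIs, at least 3 of 8 listed genes (Fbln1, Fmo2, Lama2, Kcnt2, Gdf10, Sparcl1, Apod and Penk), at least 1 Pdgfra UMI, at most 2 Pi16 UMIs, and no UMI of Fabp4, Pecam1 or Ptprc. Of 46638 cells that passed quality filters, 29836 were Pdgfra-positive without Pecam1 or Ptprc, and 1258 of these were members. There were 130 members in Notch2 cKO 1 and 531 in Notch2 cKO 2, against 41 in control 1 and 556 in control 2. Because UMIs of the 8 genes, Mgp, Pdgfra, Pi16 and Fabp4 chose the cells, those genes are described and not tested.

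Each library pooled axillary, brachial and inguinal lymph nodes of 12-week-old female C57BL/6 mice, sorted as live CD45- CD31- cells to deplete leukocytes and endothelial cells. Notch2 cKO 1 came from 6 pooled mice that carried Ccl19-Cre, Notch2 fl/fl and R26R-EYFP, and Notch2 cKO 2 from 3 pooled mice with Ccl19-Cre and Notch2 fl/fl. Control 1 came from 6 pooled mice with Ccl19-Cre and R26R-EYFP that were not littermates of Notch2 cKO 1, and control 2 from 3 pooled Notch2 fl/fl littermates of Notch2 cKO 2, without Cre by the genotype label. The title of control 2 names the Cre instead, and the genotype label and the study's design were followed. The libraries with number 1 form batch 1 and those with number 2 form batch 2. The Cre is driven by Ccl19, a gene of reticular cells, and whether every member had recombined Notch2 was not measured. R26R-EYFP is a Cre reporter carried by both batch 1 libraries and by neither batch 2 library.

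Mgp encodes matrix Gla protein, a secreted inhibitor of calcification, and Fbln1 encodes fibulin-1, a glycoprotein of elastic fibres and basement membranes. Lymph nodes hold chemokine-producing fibroblastic reticular cells in the parenchyma, and fibroblasts of the capsule and of vessel adventitia that make a denser matrix and often carry the surface sialomucin CD34. Notch2 is a receptor that is cleaved once a ligand on a neighbouring cell binds it, and its released intracellular part, with the DNA-binding protein RBPJ, switches on genes such as Hes1 and Heyl.

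Depth differed between batches. The members held a median of 2309 UMIs per cell in Notch2 cKO 1 and 5604 in Notch2 cKO 2, against 1648 in control 1 and 6268 in control 2. Their UMIs summed to 363070 and 3758839 in the Notch2 cKO libraries, against 85943 and 4024325 in the controls, so control 1 gives the least precise values throughout. Batch 1 was counted with Cell Ranger 5.0.1 and batch 2 with Cell Ranger 7.1.0. Pairs of libraries shared 18 to 50 cell barcodes among 7817 to 17014 cells each. Levels are given as CPM, the UMIs of a gene summed over the members of 1 library and divided by their UMIs of all genes, scaled to a common total, and they compare a gene between libraries and not with other genes.

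The gate genes set the population apart by construction. Mgp (chromosome 6, 136872435 to 136875823, minus strand, mm10) reached 6090 and 4721 CPM in the members of the Notch2 cKO libraries, against 4247 and 5710 CPM in those of the controls. The other Pdgfra-positive cells are the 27175 left after members, Pi16-high cells and cells with Fabp4 were set aside. In them Mgp stood at 259 and 118 CPM in Notch2 cKO libraries and at 91.6 and 83.3 CPM in control libraries. Fbln1 was detected in 84.6% and 69.1% of Notch2 cKO members, against 65.9% and 65.5% of control members. Lama2, the laminin α2 chain, was detected in 43.1% and 92.5% of Notch2 cKO members, against 29.3% and 90.3% of control members. Kcnt2, a potassium channel subunit, was detected in 3.08% and 58.0% of Notch2 cKO members, against 2.44% and 58.8% of control members. The detection of Lama2 and Kcnt2 thus differed far more between the batches than between the genotypes. Depth and the counting software differed between the batches with it, and their part was not tested.

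By Mgp or by the 8 genes, each taken singly, most members lay above the smallest accepted counts at full depth. A margin of cells lay near the gate. Of the 1258 members, 187 held the smallest accepted Mgp counts of 2 or 3 UMIs, while 194 cells met every other condition with 1 Mgp UMI. Exactly 3 of the 8 genes were detected in 272 members, and 290 cells outside had 2 of the 8. Another 469 cells met every condition except for having no Pdgfra UMI. Pi16 was present at 1 or 2 UMIs in 121 members.

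Cd34, which the gate did not use, was measured as a check on the name of the population. The gene (chromosome 1, 194938819 to 194961279, plus strand) stood at 328 and 131 CPM in Notch2 cKO members, against 291 and 236 CPM in control members. In the other Pdgfra-positive cells it stood at 28.4 and 12.3 CPM in Notch2 cKO libraries and at 35.3 and 19.7 CPM in control libraries, so that every library had a higher level in the members. Pi16-high fibroblasts, gated by at least 3 Pi16 UMIs, had more Cd34 again, at 1367 and 1012 CPM in Notch2 cKO libraries and 983 and 1040 CPM in control libraries. A Cd34 UMI was found in 52.3% and 33.3% of Notch2 cKO members, against 39.0% and 49.8% of control members, so a large part of the population had none. Dpp4, a protease that marks adventitial progenitors, stood at 16.5 and 1.33 CPM in Notch2 cKO members and at 0 and 17.4 CPM in control members, but at 331 to 421 CPM in Pi16-high fibroblasts.

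Genes outside the gate were ranked by how much higher they stood in the members than in the other Pdgfra-positive cells. This ranking describes cells that were picked by their own RNA and carries no test. It was ordered by the lowest ratio over the 4 libraries, among 2097 genes with enough reads. Serpine2, a secreted inhibitor of thrombin and related proteases, came first. It stood at 242 and 210 CPM in Notch2 cKO members and 93.1 and 249 CPM in control members, and at 2.94 to 8.47 CPM in the other cells, at least 28.6 times higher in each library. It was also higher than in Pi16-high fibroblasts, where it lay between 36.6 and 52.2 CPM. Mfap5, a microfibril glycoprotein, stood at 253 and 284 CPM in Notch2 cKO members and 256 and 405 CPM in control members, but at 1030 to 1510 CPM in Pi16-high fibroblasts. Igfbp6, which binds insulin-like growth factors, had the same order, with 421 and 442 CPM in Notch2 cKO members, 326 and 528 CPM in control members and 1510 to 3390 CPM in Pi16-high fibroblasts.

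Other genes of that ranking stood higher in the members than in Pi16-high fibroblasts. Tmem119, a transmembrane protein, stood at 135 and 114 CPM in Notch2 cKO members and 69.8 and 79.5 CPM in control members, against 0 to 48.2 CPM in Pi16-high fibroblasts. Fibroblasts with Fabp4 held 133 CPM of Tmem119 in Notch2 cKO 1 and 34.3 CPM in Notch2 cKO 2, against 167 CPM in control 1 and 20.6 CPM in control 2. Col15a1, a basement membrane collagen, stood at 419 and 148 CPM in Notch2 cKO members and 209 and 198 CPM in control members, against 26.8 to 70.2 CPM in Pi16-high fibroblasts. Fibroblasts with Fabp4 had as much Col15a1 or more in batch 1, at 773 CPM in Notch2 cKO 1 and 764 CPM in control 1. Gpnmb, a transmembrane glycoprotein, lay between 58.2 and 69.7 CPM in the members of all 4 libraries and between 4.46 and 8.17 CPM in the other cells. Fibroblasts with Fabp4 held 51.2 and 13.2 CPM of Gpnmb in Notch2 cKO libraries, against 57.8 and 13.8 CPM in controls. The rest of the 15 leading genes were Gpc3, Ebf2, Pcolce2, Spon2, Hsd11b1, Prss23, Nbl1, Hmcn2 and Cd34 itself.

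**Figure D1:**
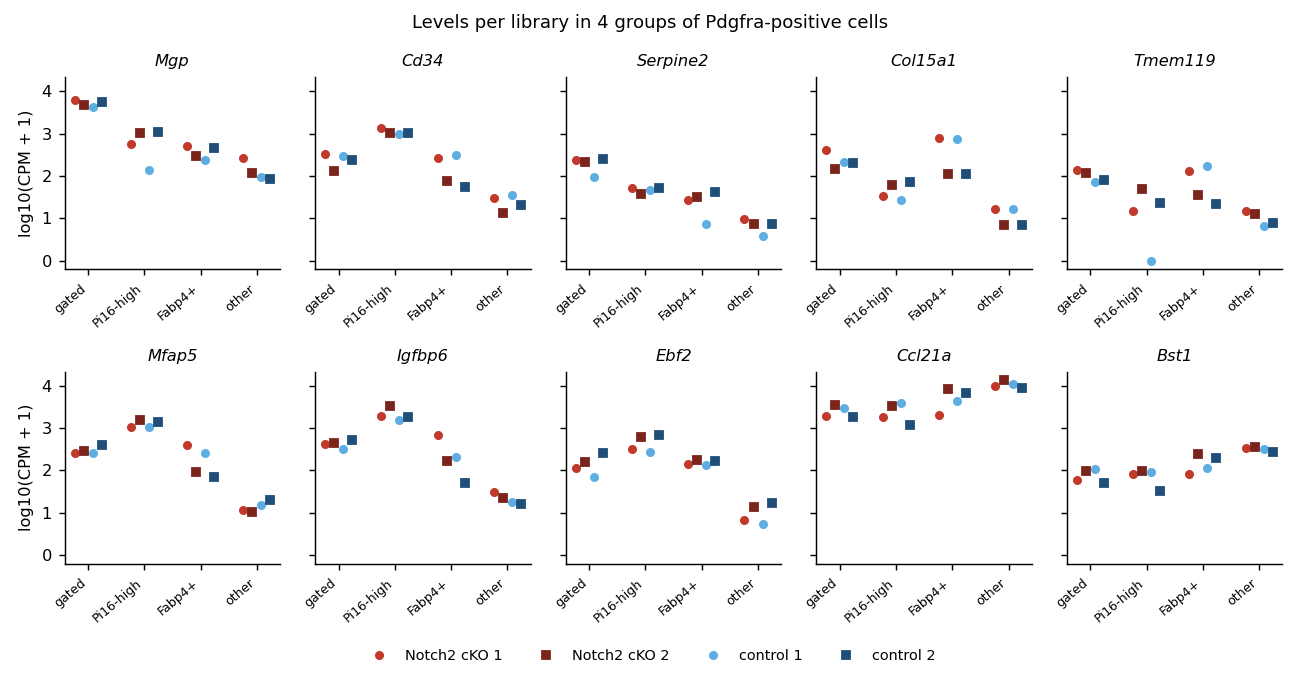
Levels of 10 genes, as the log10 of CPM plus 1, in 4 Pdgfra-positive populations, with the members labelled as gated; each point is 1 library (circles batch 1, squares batch 2), with Notch2 cKO left of control. Serpine2 and the gate gene Mgp stand highest in the Mgp Fbln1 Fmo2 members, and Cd34 and Mfap5 stand highest in the Pi16-high fibroblasts.

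Among genes lower in the members than in the other Pdgfra-positive cells, Ccl21a came first of the 10 lowest. Ccl21a, the chemokine that draws T cells and dendritic cells through CCR7, stood at 1953 and 3442 CPM in Notch2 cKO members and 3049 and 1787 CPM in control members. In the other cells it stood at 10074 and 13362 CPM in Notch2 cKO libraries and 11202 and 8960 CPM in control libraries. T cells in the same libraries, which should not make Ccl21a, were taken as a guide to free RNA. Whether their Ccl21a UMIs were free RNA or came from stromal cells caught with them was not tested. They were taken as filtered cells with a Ptprc UMI, at least 2 UMIs of Cd3e, Cd3d and Trac together and no Pdgfra UMI. There were 77 in Notch2 cKO 2 and 121 in control 2, with a median of 4477 and 5434 UMIs, and only 8 and 4 in the batch 1 libraries, whose levels are not used. Mgp, a gate gene, stood at 9.97 CPM in T cells of Notch2 cKO 2 and at 101 CPM in those of control 2. The latter was above the level in the other Pdgfra-positive cells of control 2. The T cells held 1511 CPM of Ccl21a in Notch2 cKO 2 and 1556 CPM in control 2. The summed level of the control 2 members lay close to that of its T cells, but it averages unlike members. Outside a chemokine-high class defined below, the median member held 387 CPM of Ccl19 and Ccl21a together in Notch2 cKO 2 and 505 CPM in control 2. The other genes of the 10 lowest included Bst1, Aqp1 and Lepr. Bst1, a reticular surface enzyme, stood at 57.8 and 93.4 CPM in Notch2 cKO members and 105 and 49.95 CPM in control members, against 271 to 348 CPM in the other cells.

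Matrix gene lists were summed over the members. The small leucine-rich proteoglycans, which bind and space collagen fibrils, summed to 21412 and 17578 CPM in Notch2 cKO members and 18082 and 15215 CPM in control members, against 7678 to 9976 CPM in the other cells. Decorin (Dcn) alone gave 15201 and 12473 CPM in Notch2 cKO members and 13986 and 10917 CPM in control members. The fibrillar and associated collagens summed to 12868 and 9262 CPM in Notch2 cKO members and 10286 and 10574 CPM in control members, against 4055 to 6025 CPM in the other cells. Complement genes went the other way, with 14116 and 9938 CPM in Notch2 cKO members and 11287 and 7876 CPM in control members, against 12927 to 21929 CPM in the other cells. Each of these sums is a description, since the gate picked cells with matrix genes.

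Markers of other cell types were low in the members, with exceptions. Endothelial markers summed to 0 and 30.6 CPM in Notch2 cKO members and 11.6 and 20.9 CPM in control members, with Pecam1 at 0 by the gate. T-cell markers summed to at most 4.97 CPM, and macrophage and dendritic-cell markers to at most 27.9 CPM, in any library. Of the 7 Schwann-cell markers, Scn7a gave 347 and 181 CPM in Notch2 cKO members and 291 and 205 CPM in control members, while Sox10, a transcription factor of neural crest cells and glia, was at most 0.994 CPM. Pericyte markers summed to 350 and 663 CPM in Notch2 cKO members and 535 and 669 CPM in control members. Smooth-muscle markers summed to 264 and 963 CPM in Notch2 cKO members and 407 and 643 CPM in control members. B-cell markers summed to 231 and 54.5 CPM in Notch2 cKO members and 0 and 49.0 CPM in control members, led by the immunoglobulin gene Igkc, while Ms4a1, which encodes CD20, was at most 0.266 CPM in any library.

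The members were not uniform. Among 923 genes with enough UMIs, Gsn, Ccl21a, Apoe, Malat1 and Clu varied most between members beyond counting error in all 4 libraries, each within the leading 11 genes of every library. With this in view, the members were divided into 4 classes, with limits set after the values were seen. Chemokine-high members held at least 3 UMIs and 2000 CPM of Ccl19 and Ccl21a together. Contractile-high members, outside that class, held at least 2 UMIs and 500 CPM of 5 smooth-muscle genes (Myh11, Cnn1, Acta2, Des and Lmod1) together. Of the rest, those with a Cd34 UMI formed the Cd34-positive class, and the others are called remaining members. These classes are ranges of a continuous level: in Notch2 cKO 2 and control 2, 76 and 128 members lay between 1000 and 4000 CPM of the chemokines, and 186 and 173 lay between 250 and 1000 CPM of the contractile genes.

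The class sizes differed more between batches than they did in one direction between genotypes. The limits ask for a minimum of UMIs, which shallow cells reach less easily, and class sizes at equal depth were not taken. Chemokine-high cells made up 11.54% and 16.2% of Notch2 cKO members, against 17.1% and 14.6% of control members. Contractile-high cells made up 6.92% and 33.1% of Notch2 cKO members, against 7.32% and 23.0% of control members. Cd34-positive cells made up 45.4% and 24.9% of Notch2 cKO members, against 29.3% and 39.4% of control members, so the 2 batches went opposite ways. Control 1 held only 7 chemokine-high and 3 contractile-high cells. Chemokine-high cells were also the deepest, with a median of 6687 and 14556 UMIs in Notch2 cKO libraries and 4399 and 10813 UMIs in control libraries. No doublet caller was run, and 36 chemokine-high cells of the Notch2 cKO libraries and 21 of the controls lay above the 95th percentile of UMIs of their library.

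The classes differed in Mgp and in Clu as well. Mgp stood lowest in chemokine-high cells, at 2728 and 1974 CPM in Notch2 cKO libraries and 2175 and 2572 CPM in control libraries. Remaining members held 8304 and 6609 CPM of Mgp in Notch2 cKO libraries and 6307 and 9094 CPM in control libraries. Clu, which encodes the secreted chaperone clusterin, stood at 5139 and 4529 CPM in chemokine-high cells of Notch2 cKO libraries and 5212 and 2859 CPM in those of controls, while Cd34-positive cells held 102 to 316 CPM. The actin gene Acta2, which the class limits used, stood at 1224 CPM in contractile-high cells of Notch2 cKO 2 and 927 CPM in those of control 2, and at 46.1 CPM and 28.2 CPM in the Cd34-positive cells of these libraries. T cells held 7.48 CPM of Acta2 in Notch2 cKO 2 and 108 CPM in control 2. In control 2 their level is thus no floor for the members.

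**Figure D2:**
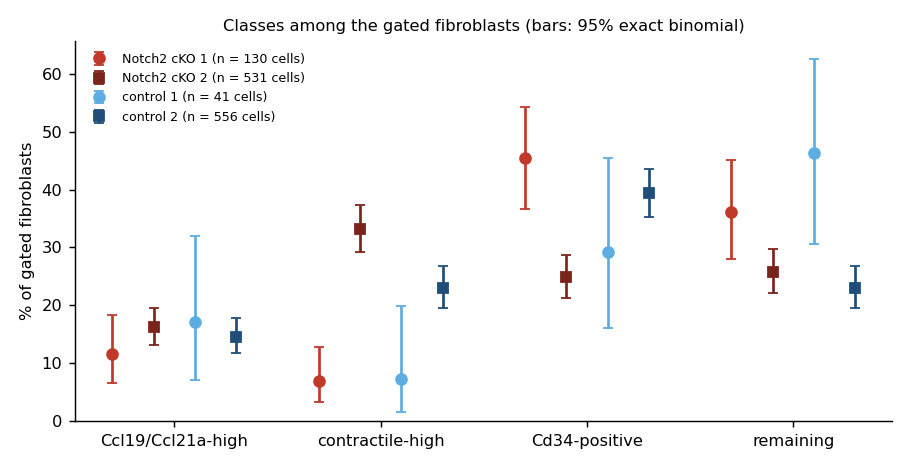
Share (%) of the members of each library that fell into each of the 4 classes (Ccl19/Ccl21a-high is the chemokine-high class); points are libraries, Notch2 cKO left of control, and vertical bars are 95% exact binomial intervals. The contractile-high share is 6.92% and 7.32% in batch 1, and 33.1% and 23.0% in batch 2, with Notch2 cKO before control.

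Whether Notch2 loss changed how frequent these fibroblasts were could not be settled with 2 libraries per genotype. Members made up 2.04% of Pdgfra-positive cells in Notch2 cKO 1 (95% exact Clopper-Pearson interval 1.71 to 2.42%) and 6.36% in Notch2 cKO 2 (5.85 to 6.91%), against 0.835% in control 1 (0.600 to 1.13%) and 5.45% in control 2 (5.01 to 5.91%). The Notch2 cKO share was the higher one in each batch, by 2.44 times in batch 1 and 1.17 times in batch 2, and the genotypes overlapped across batches. The means were 4.20% ± 3.06 in Notch2 cKO and 3.14% ± 3.26 in control libraries (SD, n = 2 each), with a two-sided exact permutation p of 0.667, where the smallest p that 2 against 2 libraries allow is 0.333. Intervals cover counting error only.

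The share was then taken at equal depth. With every cell thinned to 2000 UMIs and shallower cells left out, members made up 1.39% and 3.86% of Pdgfra-positive cells in Notch2 cKO libraries, against 0.355% and 4.42% in controls. Cells that kept a Pdgfra UMI then numbered 4882 and 5466 in Notch2 cKO libraries, against 2538 and 5882 in controls. The batch 2 ratio then stood at 0.873 and the batch 1 ratio at 3.93. The batch 1 ratio rests on 68 thinned members in Notch2 cKO 1 and only 9 in control 1. Of the unthinned members, 36 of 130 in Notch2 cKO 1 and 27 of 41 in control 1 were too shallow and left out. At 1000 UMIs the shares were 1.10% and 1.87% in Notch2 cKO libraries and 0.547% and 2.37% in controls. The ratios there were 2.02 in batch 1 and 0.789 in batch 2. The order of the genotypes in batch 2 thus turned with thinning, while it did not in batch 1. Among all filtered cells, members made up 1.66% and 4.16% in Notch2 cKO libraries, against 0.453% and 3.27% in controls.

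**Figure D3:**
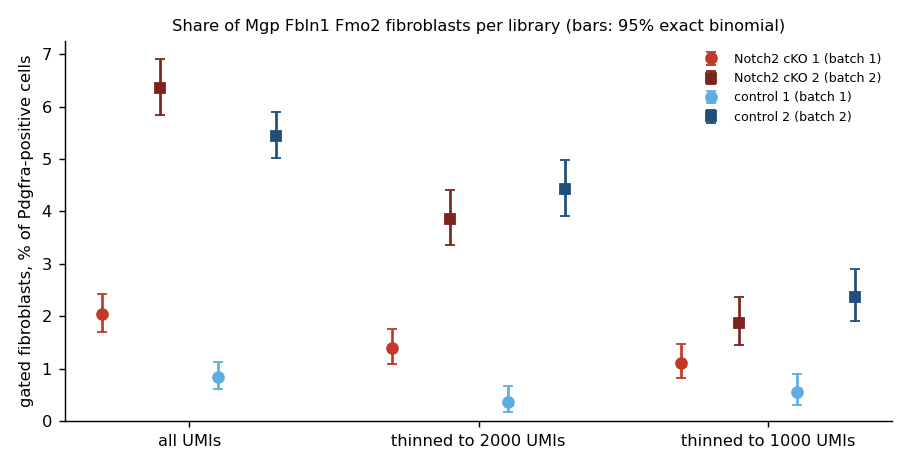
Members as a percentage of Pdgfra-positive cells in each library, unthinned and with cells thinned to 2000 and 1000 UMIs; points are libraries (circles batch 1, squares batch 2), Notch2 cKO left of control, and vertical bars are 95% exact binomial intervals. Batch 2 lies above batch 1 throughout, and its Notch2 cKO point lies above control only without thinning.

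The targeted gene was low in every library. Notch2 (chromosome 3, 98013527 to 98150361, plus strand) gave 7 and 165 UMIs, or 19.3 and 43.9 CPM, in Notch2 cKO members, against 3 and 224 UMIs, or 34.9 and 55.7 CPM, in control members. It was lower in Notch2 cKO in each batch, with a log2 fold change of -0.50 and an edgeR adjusted p of 1.00. The floxed exons are not given in the sources used here, and reads that start from the 3′ end may lie outside them, so this level does not measure recombination.

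To find genes that differed by genotype within the members, UMIs were summed per library and tested with edgeR's quasi-likelihood test with the batch as a term. The members' RNA differed in few genes. Of 11112 genes tested, 33 passed a Benjamini-Hochberg adjusted p of 0.05 (0.297%), 16 higher (0.144%) and 17 lower (0.153%) in Notch2 cKO, and none of them belonged to the gate. At an unadjusted p under 0.05 there were 369 genes, 175 higher and 194 lower. The test had 1 residual degree of freedom. Its p-values and SEs therefore rest mostly on a spread shared over genes, and measure little of each gene's own spread between pooled libraries. Of the 33 genes, 21 had fewer than 3 UMIs in control 1. Without TMM factors 43 passed, 27 higher and 16 lower. No gene passed with DESeq2 (57 under an unadjusted p of 0.05), with edgeR without the replicate block that the batch term forms (101), without control 1 (126) or without control 2 (256). In the other Pdgfra-positive cells, 700 of 16885 genes passed the same test (4.15%), and 24 of the 33 passed there too with the same sign, with mice and libraries shared between the 2 sets of cells.

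Aqp1, which encodes the water channel aquaporin-1, was higher in the Notch2 cKO members. Aqp1 (chromosome 6, 55336432 to 55348555, plus strand) stood at 127 and 94.98 CPM in Notch2 cKO members, against 23.3 and 15.2 CPM in control members. Both Notch2 cKO libraries lay above both controls, with a log2 fold change of 2.52 ± 0.40 (SE, n = 2 each, edgeR adjusted p = 6.8e-07). Control 1 held only 2 Aqp1 UMIs. In Notch2 cKO 1, 3 cells held at least as many of the 46 Aqp1 UMIs as the others together. Most of this RNA lay in the chemokine-high cells, with 498 and 256 CPM in Notch2 cKO libraries and 64.0 and 45.1 CPM in control libraries. Cd34-positive cells held 13.9 and 20.5 CPM in Notch2 cKO libraries and 0 and 5.77 CPM in controls. T cells of batch 2 held 34.9 CPM of Aqp1 in Notch2 cKO 2 and 15.8 CPM in control 2.

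Ecrg4, a secreted peptide precursor, and Prkcb, a protein kinase C isoform, followed the same layout over the classes. Ecrg4 stood at 35.8 and 47.9 CPM in Notch2 cKO members, against 0 and 6.71 CPM in control members (log2 fold change 2.77 ± 0.53, edgeR adjusted p = 0.00018). Chemokine-high cells held 147 and 108 CPM of Ecrg4 in Notch2 cKO libraries and 0 and 20.3 CPM in controls. Prkcb stood at 88.1 and 160 CPM in Notch2 cKO members, against 11.6 and 29.3 CPM in control members. T cells, which express Prkcb themselves, held 160 CPM in Notch2 cKO 2 and 116 CPM in control 2. Pdlim3, Dchs2 and Dsg2 also rose, and both Notch2 cKO libraries lay above both controls for each of these genes. Control 1 held only 0 UMIs of Ecrg4, 1 of Prkcb, 2 of Pdlim3, 1 of Dchs2 and 1 of Dsg2. Dchs2 had 7 UMIs in Notch2 cKO 1, and 1 cell held at least as many as the others together.

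Among other genes that rose, some were higher in more than 1 class. Ncam1, a neural cell adhesion molecule, stood at 66.1 and 80.3 CPM in Notch2 cKO members, against 0 and 19.6 CPM in control members, a log2 fold change of 2.05 ± 0.40 (edgeR adjusted p = 0.00029). Sfrp1, a secreted Wnt antagonist, stood at 240 and 310 CPM in Notch2 cKO members, against 69.8 and 106 CPM in control members, a log2 fold change of 1.57 (edgeR adjusted p = 0.0337). In batch 2, Sfrp1 ranged over the 4 classes from 271 to 435 CPM in Notch2 cKO 2 and from 101 to 115 CPM in control 2. Ltc4s, the leukotriene C4 synthase, stood at 71.6 and 163 CPM in Notch2 cKO members, against 23.3 and 43.2 CPM in control members. For each of these 3 genes the genotypes did not overlap, but control 1 held 0 UMIs of Ncam1, 6 of Sfrp1 and 2 of Ltc4s.

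Mmp16 and Adamts17, a membrane-bound and a secreted metalloprotease, rested on batch 2. Mmp16 stood at 8.26 and 201 CPM in Notch2 cKO members, against 0 and 33.1 CPM in control members. Adamts17 stood at 13.8 and 169 CPM in Notch2 cKO members, against 0 and 41.5 CPM in control members. The libraries overlapped for both genes. Without Notch2 cKO 2 their fitted log2 fold changes were -1.61 for Mmp16 and -1.22 for Adamts17, but this fit had no batch term and also holds the difference between batches. Within batch 1 both were higher in Notch2 cKO, by log2 values of 3.25 and 3.92, on 3 and 5 UMIs against 0 in control 1. Lingo2, a leucine-rich transmembrane protein with a low mean level, gave 197 UMIs in Notch2 cKO members and 2 in control members, a ratio of 98.2 (95% counting interval 26.8 to 817), with 195 of the 197 in Notch2 cKO 2.

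Among genes that fell, Ptn and Lepr were lower in all 4 classes of each batch. Ptn, the secreted growth factor pleiotrophin (chromosome 6, 36714929 to 36810220, minus strand), stood at 90.9 and 87.0 CPM in Notch2 cKO members, against 617 and 195 CPM in control members, a log2 fold change of -1.85 ± 0.38 (edgeR adjusted p = 0.00099). Lepr, the leptin receptor, stood at 52.3 and 55.9 CPM in Notch2 cKO members, against 151 and 187 CPM in control members, a log2 fold change of -1.71 ± 0.38 (edgeR adjusted p = 0.0038). Both Notch2 cKO libraries lay below both controls for either gene, and control 1 held few cells in 2 of the classes. T cells of batch 2 held 42.4 CPM of Lepr in Notch2 cKO 2 and 74.9 CPM in control 2.

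For several of the other genes that fell, T cells of batch 2 differed in the same direction as the members. Ifitm1, an interferon-induced membrane protein, stood at 198 and 202 CPM in Notch2 cKO members, against 838 and 449 CPM in control members, and T cells held 54.9 CPM in Notch2 cKO 2 and 228 CPM in control 2. Vtn, the adhesive protein vitronectin, stood at 46.8 and 89.1 CPM in Notch2 cKO members, against 337 and 195 CPM in control members, and T cells held 17.5 CPM in Notch2 cKO 2 and 103 CPM in control 2. Procr, the endothelial protein C receptor, stood at 19.3 and 33.0 CPM in Notch2 cKO members, against 69.8 and 86.7 CPM in control members. T cells held 7.48 CPM of Procr in Notch2 cKO 2 and 67.1 CPM in control 2. How much of these differences lies in the members' own RNA was not tested, nor was the source of the T cells' UMIs. Apoc1 and Bloc1s1 also fell, and the same limit holds for them. T cells held 2.49 CPM of Apoc1 and 0 CPM of Bloc1s1 in Notch2 cKO 2, against 26.3 and 36.8 CPM in control 2.

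Thbs4, the matrix glycoprotein thrombospondin-4 (chromosome 13, 92751590 to 92794818, minus strand), came from very few cells. It stood at 38.6 and 16.5 CPM in Notch2 cKO members, against 163 and 104 CPM in control members, a log2 fold change of -2.53. In control 2, 96.4% of its 419 UMIs lay in members with at least 2 UMIs of Myoc, Angptl1 or Frmpd4, and 2 cells held at least as many as all its other members together. Such members numbered 5 and 25 in Notch2 cKO libraries, against 0 and 56 in controls. They were chosen after the values were seen, by genes that passed as lower. Their smaller number in Notch2 cKO 2 than in control 2 is therefore no independent evidence. Without these members the log2 fold change of Thbs4 was 0.0747, which describes where its UMIs lay and is no test. Pcsk6 and Creb5, which passed as lower too, had 71.0% and 45.5% of their control 2 UMIs in the same cells. Myoc, Angptl1 and Frmpd4, which chose these cells, passed as lower as well. Of the 33 genes, 28 had 1 sign in both batches. The other 5 were Myoc, Angptl1, Creb5, Il31ra and Frmpd4, which were lower in Notch2 cKO in batch 2 but not in batch 1, so these calls rest on batch 2. Angptl1 stood at 55.1 and 10.1 CPM in Notch2 cKO members, against 0 and 60.4 CPM in control members.

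**Figure D4:**
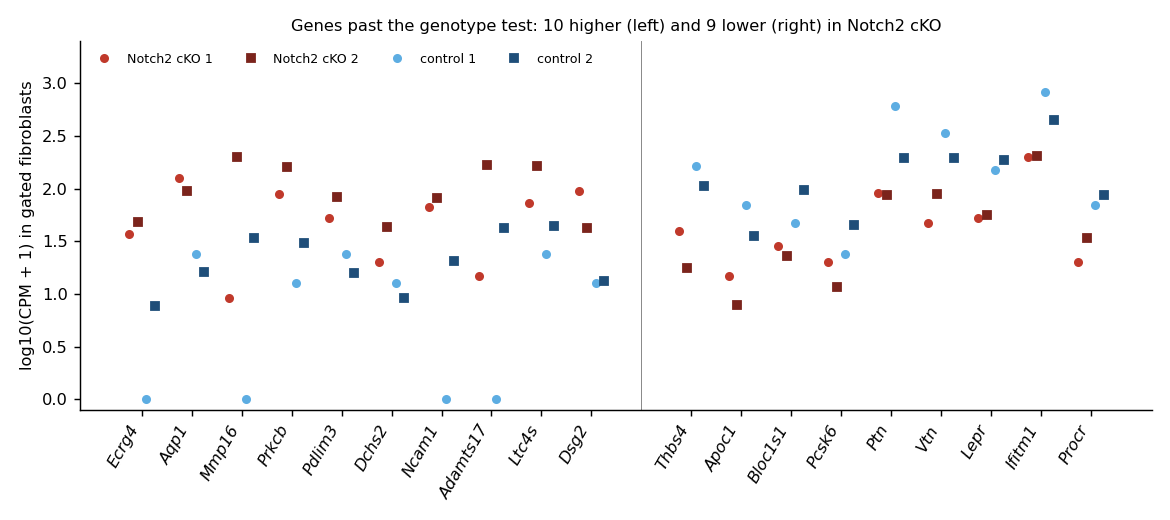
Levels, as the log10 of CPM plus 1, in the members of each library for the 10 named genes higher and 9 of those lower in Notch2 cKO; each point is 1 library (circles batch 1, squares batch 2), Notch2 cKO left of control. The 2 Notch2 cKO libraries lie on 1 side of both controls for Aqp1, Ncam1, Ptn and Lepr, and overlap them for Mmp16. Control 1 held 2 UMIs of Aqp1 and 0 of Ncam1.

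Most gene groups held few or no genes that passed, against 0.297% of all genes tested and a median log2 fold change of 0.0332 over all of them. Of 19 elastic-fibre and microfibril genes none passed, with a median of 0.23, and of 14 fibrillar and associated collagens none passed, with a median of 0.19. Col1a2, a chain of type I collagen, stood at 3137 and 2600.3 CPM in Notch2 cKO members and 2420.2 and 2532 CPM in control members. Of 10 small leucine-rich proteoglycans none passed (median 0.28), of 17 basement membrane genes none (median -0.11), and of 24 BMP and TGF-beta pathway genes none (median -0.0032). Of 13 adventitial and progenitor genes outside the gate, Procr fell and 12 did not pass (median -0.31). Cd34 itself had a log2 fold change of -0.42 ± 0.38, with an edgeR adjusted p of 1.00. Of 11 secreted Wnt modulators and ligands, Sfrp1 rose and 10 did not pass (median 0.04), and of 17 neural and axon guidance genes Ncam1 rose and Ptn fell (median -0.20). Apoc1 was the only one of 19 lipid handling genes that passed (median -0.12).

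Groups of immune function gave values without a gene past the test. Of 16 T-zone reticular genes none passed (median 0.20). Ccl19, the other CCR7 ligand and the gene whose promoter drives the Cre, stood at 248 and 736 CPM in Notch2 cKO members, against 2327 and 800 CPM in control members, with a log2 fold change of -1.59 and an edgeR adjusted p of 0.212. Its 200 UMIs in control 1 set that library apart. T cells held 200 CPM of Ccl19 in Notch2 cKO 2 and 735 CPM in control 2. The 6 MHC class II genes tested had a median log2 fold change of 1.37, the 6 fitted values were positive, and none passed. Within batch 1, H2-Ab1 and H2-DMb1 were lower in Notch2 cKO, with log2 values of -0.23 and -0.07. Cd74, the invariant chain, stood at 218 and 273 CPM in Notch2 cKO members, against 151 and 63.9 CPM in control members. It had an edgeR adjusted p of 0.0509. T cells held 187 CPM of Cd74 in Notch2 cKO 2 and 93.4 CPM in control 2, the latter above the control 2 members. Of 19 interferon response genes, 11 complement genes, 13 inflammatory genes, 15 immediate early genes, 18 retinoid and oxidative genes, 10 IGF pathway genes, 11 contractile genes and 17 positional transcription factors, none passed. The same held for 14 Notch receptors, ligands and cofactors, 8 medullary-type genes, 6 B-zone genes and 3 cell cycle genes.

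Lists that had been chosen on these same libraries, from all fibroblasts, are no independent evidence. Of 9 such genes higher in all fibroblasts after Notch2 loss, 4 rose in the members (Ncam1, Sfrp1, Lingo2 and Ecrg4), with a median log2 fold change of 1.49. Of 9 lower in all fibroblasts, Ptn and Apoc1 fell, with a median of -1.56.

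Whether the genotype difference in the members was the same as in the other Pdgfra-positive cells was tested directly, with the library as a block and a term for population by genotype. The difference of log2 fold changes, members minus other cells, passed for 187 of 14250 genes (1.31%), 118 above 0 and 69 below 0. Its median over all genes tested was 0.04. Of the 187 genes, 154 had a fold change in both populations, and 132 of these had the smaller absolute change in the members. The share of all tested genes with the smaller change in the members was not taken. The count of 132 is thus a description without a background. None passed without the library block, where 77 genes were under an unadjusted p of 0.05, 74 passed without Notch2 cKO 2 and 23 without control 2. Genes such as Igfbp2, Ptn, Cilp and Cxcl14 had been chosen for large changes in all fibroblasts of these libraries, so that a smaller change in the members is no independent evidence for them.

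Notch target genes were among those with the smaller fold change in the members. Hes1, a transcriptional repressor switched on by Notch (chromosome 16, 30064384 to 30067796, plus strand), stood at 179 and 163 CPM in Notch2 cKO members, against 303 and 198 CPM in control members. In the other cells it stood at 72.3 and 43.4 CPM in Notch2 cKO libraries, against 202 and 215 CPM in controls. The log2 fold changes were -0.49 in members and -1.93 in other cells, and their difference was 1.66 ± 0.25 (SE, edgeR adjusted p = 2.1e-08). Without Notch2 cKO 2 and without control 2 the Hes1 difference was 1.21 and 1.29 and did not pass.

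Heyl and Notch3, a related repressor and a Notch receptor that Notch signalling itself induces, had the same layout. Heyl stood at 22.0 and 31.4 CPM in Notch2 cKO members, against 58.2 and 52.4 CPM in control members, with a difference of 1.50 (edgeR adjusted p = 0.0157). Notch3 stood at 46.8 and 152 CPM in Notch2 cKO members, against 69.8 and 179 CPM in control members, with a difference of 1.69 (edgeR adjusted p = 1.5e-07). In the other cells Notch3 stood at 21.9 and 39.1 CPM in Notch2 cKO libraries, against 146 and 145 CPM in controls. These 3 were the ones of 9 Notch target genes whose difference passed, with a median of 0.50, and none of the 6 tested within the members passed there (median -0.33). Without Notch2 cKO 2 neither passed, at 0.87 for Heyl and 0.99 for Notch3, and Heyl did not pass without control 1 (1.37) or without control 2 (2.12). The contractile-high members held the most Notch3 of the 4 classes in batch 2, at 281 CPM in Notch2 cKO 2 and 358 CPM in control 2. The difference for Notch2 was 0.27 and did not pass.

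Igfbp2, which binds insulin-like growth factors, was low in Notch2 cKO among the other cells and not among the members. The gene (chromosome 1, 72824503 to 72852474, plus strand) stood at 19.3 and 44.4 CPM in Notch2 cKO members, against 23.3 and 25.6 CPM in control members. In the other cells it stood at 4.36 and 12.8 CPM in Notch2 cKO libraries, against 86.8 and 76.0 CPM in controls. The difference was 3.46 (edgeR adjusted p = 5.7e-21). Ptn fell in both populations, with log2 fold changes of -1.85 in members and -2.96 in other cells and a difference of 0.96. Ntrk2, the BDNF receptor, stood at 248 and 246 CPM in Notch2 cKO members and 337 and 238 CPM in control members, while other cells held 28.1 and 34.5 CPM in Notch2 cKO libraries and 95.4 and 112 CPM in controls.

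Differences of matrix genes ran both ways. Of 19 elastic-fibre and microfibril genes the difference passed for 3, below 0 for Mfap4 and Fbln2 (-0.94) and above 0 for Lox (1.70), and of 14 fibrillar and associated collagens it passed for Col6a3 (0.97). Lox, an enzyme that cross-links collagen and elastin, stood at 140 and 103 CPM in Notch2 cKO members, against 34.9 and 62.1 CPM in control members. Cilp, a matrix protein of cartilage and fibroblasts, stood at 355 and 217 CPM in Notch2 cKO members, against 105 and 145 CPM in control members. In the other cells Cilp stood at 779 and 442 CPM in Notch2 cKO libraries, against 32.3 and 39.2 CPM in controls. The difference was -2.88. Mfap4, a microfibril-associated glycoprotein, stood at 35.8 and 53.5 CPM in Notch2 cKO members and 23.3 and 49.2 CPM in control members, and its difference was -3.44. In the controls, Mfap4 was at 1.12 and 1.33 CPM in the other cells, below the members of the same libraries. Podn, a small leucine-rich proteoglycan, stood at 245 and 158 CPM in Notch2 cKO members, against 163 and 141 CPM in control members. Podn in the other cells stood at 78.1 and 44.1 CPM in Notch2 cKO libraries, against 15.02 and 13.9 CPM in controls, and the difference was -1.55. Ecm2 and Aspn, of the same list, differed the other way by 1.04 and 1.38, and these 3 were the ones of 11 genes of that list whose difference passed (median 0.40). Ly6a, the surface protein Sca-1 and the only one of 13 adventitial genes whose difference passed (-1.02), stood at 793 and 517 CPM in Notch2 cKO members and 489 and 434 CPM in control members. The other cells held 240.6 and 259 CPM in Notch2 cKO libraries and 93.9 and 79.2 CPM of Ly6a in controls. The chemokine gene Cxcl14 had a difference of -3.71, but its members' values ran opposite ways in the batches, at 242 and 34.1 CPM in Notch2 cKO and 0 and 43.7 CPM in control.

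Of 14 inflammatory genes tested, the difference passed for 6 (Il6, Cxcl2, Cxcl5, Ccl8, Ccl11 and Has1), each above 0, with a median of 0.85 over the list. Ccl11, the eosinophil chemokine eotaxin, stood at 686 and 374 CPM in Notch2 cKO members, against 745 and 673 CPM in control members. In the other cells it stood at 235 and 121 CPM in Notch2 cKO libraries, against 456 and 456 CPM in controls. Il6, an acute-phase cytokine gene, stood at 408 and 181 CPM in Notch2 cKO members, against 128 and 465 CPM in control members. Il6 was thus higher in Notch2 cKO in batch 1 and lower in batch 2.

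**Figure D5:**
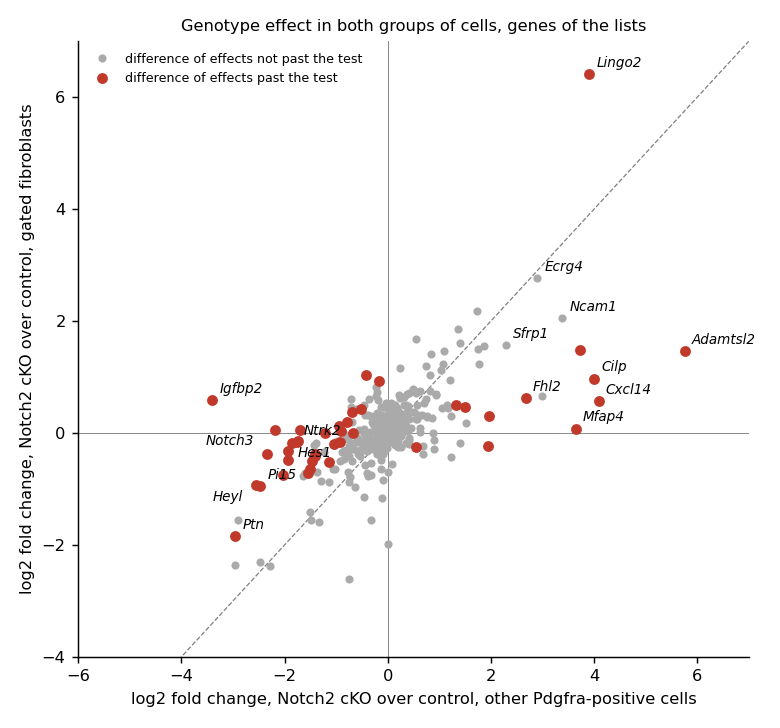
Log2 fold change (Notch2 cKO over control) in the members on the vertical axis against that in other Pdgfra-positive cells on the horizontal axis, for 320 genes of the lists; each point is 1 gene, the dashed line marks equal values, and the 42 with a difference past the test are red. Of these 42 genes, 39 have the smaller absolute value in the members. The share over all tested genes was not taken, and some lists were chosen for large changes in all fibroblasts of these libraries.

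Against the Pi16-high fibroblasts, the nearest population by the gate, no difference of genotype effects passed. With edgeR, 0 of 8710 genes passed (0%), and 228 were under an unadjusted p of 0.05. With population by batch as a further term 25 passed, and up to 18 passed when a library was left out. The Pi16-high population held 190 and 63 cells in Notch2 cKO libraries, against 45 and 165 in controls, so this comparison is less precise. For Hes1, Pi16-high fibroblasts held 83.1 and 67.5 CPM in Notch2 cKO libraries, against 125 and 91.3 CPM in controls. For Ptn they held 7.55 and 44.3 CPM in Notch2 cKO libraries, against 161 and 65.2 CPM in controls.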

How the data were processed

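The submitters deposited raw UMI counts per gene and cell barcode from 10x 3′ libraries. The file headers name Cell Ranger 5.0.1 for the first batch and 7.1.0 for the second, while the submitters' processing notes name 5.0.1 and mm10 for all 4 libraries. The sources do not say whether introns were counted. Kept cells had 500 or more genes, 1000 or more UMIs and no more than 10% mitochondrial UMIs, and no doublet caller was run. UMIs were summed per library over the members, with 85943 to 4024325 UMIs per sum, and tested with edgeR 4.0.16 (R 4.3.3; TMM, filterByExpr, quasi-likelihood, batch as a term, Benjamini-Hochberg threshold 0.05). DESeq2 1.42.0 was an alternative. Scripts were tested on simulated data.

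The labels state that a number marks a batch, so the same number pairs libraries; deviations from the group means of same-numbered libraries correlated at 0.44 across 6824 genes. With 3 libraries and a batch term no residual degree of freedom is left, so the term was dropped when a library was left out of the test within the members.

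Genes named between genotypes were the 10 largest changes per direction that passed, went the same way in each batch and averaged 20 CPM or more, leaving out predicted, ribosomal, mitochondrial and gate genes. Others named were up to 4 of each list by lowest adjusted p, further list members by level with values only, and the 5 largest differences per direction. The members and lists were chosen with earlier results of these data known. Coordinates are from GENCODE on mm10. Alternatives changed the gate, filters, scaling and libraries. Some genes are not reported here.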

Additional observations from a re-analysis of the deposited data

Results flagged for a closer look

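Each gene below had a genotype effect in the members that differed from that in the other Pdgfra-positive cells by edgeR's test of the difference itself, given as the log2 fold change in members minus that in other cells. No explanation was tested.

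Some genes that were lower in Notch2 cKO in both batches of the other cells had differences above 0. These were 3.46 for Igfbp2, 1.88 for Il6, 1.73 for Ntrk2, 1.69 for Notch3 and 1.66 for Hes1. They were also 1.53 for Pi15, 1.50 for Heyl, 1.37 for Tspan7, 1.05 for Ccl11 and 0.96 for Ptn. In the other cells Il6 changed unevenly, with log2 values of -0.61 in batch 1 and -3.03 in batch 2. The difference for Lingo2 was 2.90, which rested on Notch2 cKO 2. The differences below 0 were -1.87 for Fhl2, -1.99 for Adamts15, -2.88 for Cilp, -3.44 for Mfap4, -3.71 for Cxcl14 and -3.80 for Adamtsl2.

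The 5 largest differences in each direction mostly belonged to genes with few UMIs in the members. Myoc had 322 UMIs in control 2, but in only 33 of its 556 members, and 5 cells held at least as many as all the others together. Above 0 the differences were 4.95 for Sele, 4.18 for B3galt2, 4.01 for Hamp, 3.97 for Pcdhga7 and 3.90 for Cr2. Below 0 they were -11.77 for Ighg3, -8.43 for Ccdc36, -6.02 for Myoc, -4.93 for Prg4 and -4.16 for Gata3. Of these 10 genes, 8 were too low to be tested within the members alone, the exceptions being Myoc and Prg4.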

How the results depend on the processing

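Within the members, 33 genes passed between genotypes. That number was 0 with no replicate block (the fit without the batch pairing), 0 with DESeq2, 9 among genes with a mean of at least 20 CPM, 3 with the gate applied after thinning to 2000 UMIs, 20 with at least 4 of the 8 genes, 19 without cells above the 95th percentile of UMIs, 0 among the 85 members with no UMI of another lineage's marker, where only 1270 genes could be tested, and 0 to 79 with 1 library left out. Without chemokine-high and contractile-high members, chosen after seeing the data, it was 16, with 12 shared. The difference from other Pdgfra-positive cells passed for 187 genes, for 0 with no replicate block, for 43 at 20 CPM or more and for 23 to 236 with 1 library left out. The difference from Pi16-high fibroblasts passed for 0 genes, 0 with no replicate block, 25 with population by batch as a further term, 0 to 18 with 1 library left out and 10 without chemokine-high and contractile-high members. The share difference of 1.06 points ranged from -1.25 to 3.37 points with 1 library left out, at -1.10 without Notch2 cKO 2 and -1.25 without control 1, and the replicate block gave no value there because the exact test was unpaired.

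The log2 fold change of Cd34 ranged from -1.07 to 0.39 with 1 library left out, with 0.39 without Notch2 cKO 2, and was 0.40 after thinning and 0.43 without cells holding other lineages' markers, and that of Hes1 to 0.14 without those cells. Fits within the members with 1 library left out had no batch term, so their values also hold the difference between batches. In them the log2 fold change of Notch3 ranged from -1.51 to 0.52, above 0 at 0.0442 without Notch2 cKO 1 and at 0.52 without control 2. Within batch 1 and batch 2 the log2 fold change of Notch3 was -0.57 and -0.24. With 1 library left out, that of Mmp16 ranged from -1.61 to 10.29 and of Adamts17 from -1.22 to 10.11, each below 0 without Notch2 cKO 2. That of Thbs4 was 0.0747 without Myoc, Angptl1 or Frmpd4 members, which were chosen after seeing the data. The differences from other cells ranged from -2.05 to 9.27 for Sele, -4.29 to 6.32 for B3galt2, -3.87 to 4.88 for Hamp and -0.94 to 7.13 for Cr2, each lowest without Notch2 cKO 2. They ranged from -7.93 to 5.65 for Myoc, -5.32 to 3.35 for Prg4, -9.79 to 5.48 for Gata3, -4.97 to 10.45 for Cxcl14 and -4.92 to 3.71 for Adamtsl2, each highest without control 2. Without chemokine-high and contractile-high members they were -6.07 for Cr2 and -3.56 for Lingo2. The causes were not tested.

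Of 22 named genes that passed within the members, 0 passed with DESeq2 or with no replicate block, 21 without TMM factors and 0 without either control. The 41 cells of control 1 limit all of these values.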
